A study of Mus musculus with 6 samples.

Results

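Expression of 53 genes that take glucose through glycolysis, into pyruvate and through the citrate cycle was examined in pancreatic islets from mTR-/-G4 and wild-type mice. The genes were chosen by name, for their place in the pathway and not for their values, and form 3 groups: 21 of glycolysis, 15 around pyruvate and lactate, and 17 of the citrate cycle with its glutamate and glycerol phosphate side reactions. Of these, 50 were measured on a probe of their own, among 20204 such genes in all: 19 of glycolysis, 15 of the pyruvate group and 16 of the cycle. Gpi1, the phosphoglucose isomerase, and Eno1, the common enolase, had no probe listed here, and Mdh1, the cytosolic malate dehydrogenase, was listed only on a probe shared with Pgam1. Pkm2, the M-type pyruvate kinase, was found under its current symbol Pkm.

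Islets were purified by collagenase digestion from 3 mTR-/-G4 and 3 wild-type mice, all male, of the C57BL/6 strain and 15 months old. mTR-/-G4 mice lack the RNA component of telomerase, the enzyme that extends chromosome ends, and had been bred without it for 4 generations, which leaves their telomeres short. Each sample was hybridized to an Affymetrix mouse exon array and was taken as 1 mouse. The null allele is present in every cell of the body, so a difference in islets need not begin there, and no telomerase-null group with long telomeres was among the arrays.

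Glucose enters the β-cell and is phosphorylated, and glycolysis then carries it to pyruvate. Pyruvate enters the mitochondrion and the citrate cycle through pyruvate dehydrogenase or pyruvate carboxylase, and the ATP that follows closes potassium channels and sets off insulin release. β-cells are known for keeping lactate dehydrogenase A and the monocarboxylate transporter Slc16a1 low, so that pyruvate is used in mitochondria, and for a high activity of the mitochondrial glycerol phosphate dehydrogenase Gpd2. The study had measured glucose-stimulated insulin release and mitochondrial responses in islets of other, younger mice of these genotypes, and the comparison here asked whether transcripts of the enzymes upstream of those responses differed.

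The deposited values were log2 signals, so a difference of 1 is a doubling of signal, and all differences are mTR-/-G4 minus wild-type. The arrays did not share one range: the interquartile range of all probes was 2.56, 2.05 and 2.42 in mTR-/-G4 samples a, b and c, against 2.66, 2.79 and 2.63 in wild-type samples a, b and c. mTR-/-G4 b had the narrowest range, and calls that were lost without it are named with their values. Among 21 markers of acinar cells, the exocrine cells around islets, 19 passed the test as higher and 1 as lower, and their summed linear signal was 24183 to 47193 in mTR-/-G4 samples, against 8011 to 16490 in wild-type samples. Of 18 islet endocrine genes none passed in either direction, and 15 were lower on average in mTR-/-G4 islets. Their median difference was -0.15, and their summed signal was 65819 to 71959 in mTR-/-G4 samples, against 72134 to 77990 in wild-type samples. The knockout itself could not be checked, because no probe was listed for Terc, the telomerase RNA, alone. Of 10 endothelial markers, 9 were lower on average in mTR-/-G4 islets and 3 passed as lower (Kdr, Flt1 and Tek). Their summed signal was 1724 to 2164 in mTR-/-G4 samples, against 2127 to 3336 in wild-type samples. Among 6 duct, 8 leukocyte and 9 stromal markers, only the duct marker Muc1 passed as higher and only the stromal marker Rgs5 as lower. All 6 duct markers were higher on average in mTR-/-G4 islets, as were 5 of the leukocyte and 6 of the stromal markers. The part of acinar, endothelial, duct, leukocyte and stromal RNA in the enzymes' differences was not tested. The mean log2 acinar signal was 9.04 to 9.99 in mTR-/-G4 samples, against 7.56 to 8.5 in wild-type samples. In the fits below that take it as a covariate, acinar signal and genotype can therefore hardly be told apart. In such bulk samples, fewer cells of a type and less RNA per cell cannot be told apart.

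Few of the enzymes passed the study's threshold, and the share of all genes that did was small. The study called a gene that was more than 1.5-fold higher or lower at an unadjusted p under 0.05. By that rule, with p from limma, 0 of the 50 measured genes were higher, where 1.94% of all genes were, and 2 were lower, Hk1 and Eno3, where 1.64% of all genes were. No member had an adjusted p under 0.05 over all probes with limma, and 1 probe on the whole array did. Student's t-test, which the methods name in general and not for the arrays, gave none for any gene after adjustment on the same values. At an unadjusted p under 0.05 from limma, 5 members were higher and 3 lower, where 14.2% and 7.96% of all genes were, and all 8 belonged to glycolysis. None of the 15 genes of the pyruvate group and none of the 16 of the cycle reached that p. The median difference was 0.13 for glycolysis, -0.02 for the pyruvate group and -0.07 for the cycle, beside 0.10 for all genes. With each array centred on its own median, these were 0.03, -0.12 and -0.16 beside 0.00, and the calls over all genes were 221 higher and 573 lower, against 391 and 331 on the values as deposited, while the members past the threshold were again Hk1 and Eno3. After a further quantile normalization the medians were 0.14, 0.05 and 0.05 beside 0.02, so the signs of the pyruvate and cycle medians turned. Without mTR-/-G4 b the cycle median was 0.01.

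Most of the enzymes could be bounded on their brightest probe. The 95% interval of the difference lay within 1.5-fold in both directions for 37 of the 50 members, where it did for 63.5% of all genes. By group these were 10 of 19 in glycolysis, 12 of 15 in the pyruvate group and 15 of 16 in the cycle. Gpd2 was among those of the cycle, though its other probes differed by -0.39, -1.11 and -1.73. On the brightest probes the cycle was the group with the smallest spread, from -0.40 for Ogdh to 0.12 for Glud1.

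**Figure D1:**
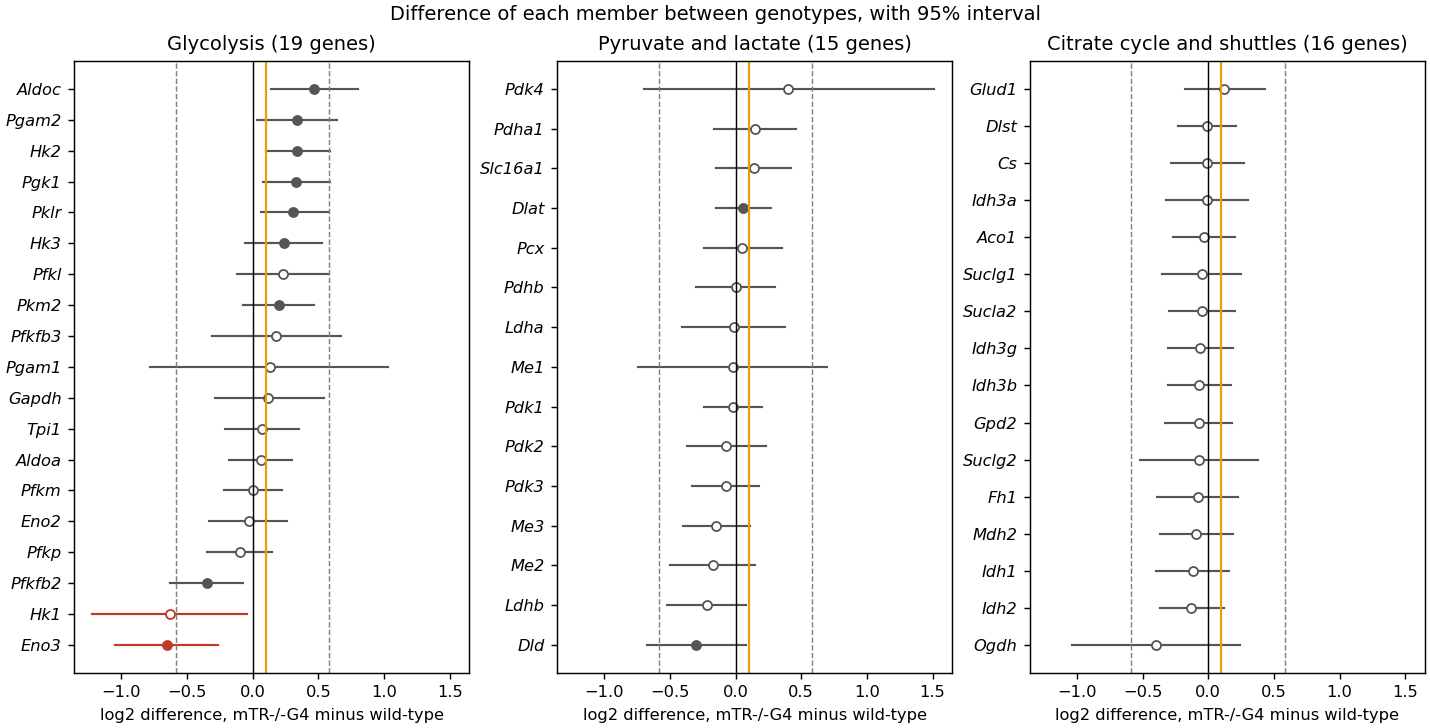
Log2 difference (mTR-/-G4 minus wild-type) of the 50 measured genes in their 3 groups, on the brightest probe of each, with 95% intervals from limma. Red marks the 2 genes past the study's threshold, filled points have genotypes that do not overlap, dashed lines mark 1.5-fold, and the yellow line is the median of all genes (0.10). The cycle genes lie close to 0, and Eno3 and Hk1 lie farthest below it.

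The direction of a small difference went with the brightness of the probe over the whole array. When all genes were ranked by mean signal into 4 bins of 5051 genes, the median difference was 0.24 in the dimmest bin, 0.18 in the next, then -0.04, and -0.10 in the brightest. In the dimmest bin 24.2% of genes were higher with an unadjusted p under 0.05 and 0.337% lower, while in the brightest 4.55% were higher and 17.3% lower. Only 3 members, Hk2, Pgam2 and Slc16a1, lay in the dimmest bin and 32 in the brightest, where the members had a median of -0.01. The part of this shift in each member's difference was not tested.

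**Figure D2:**
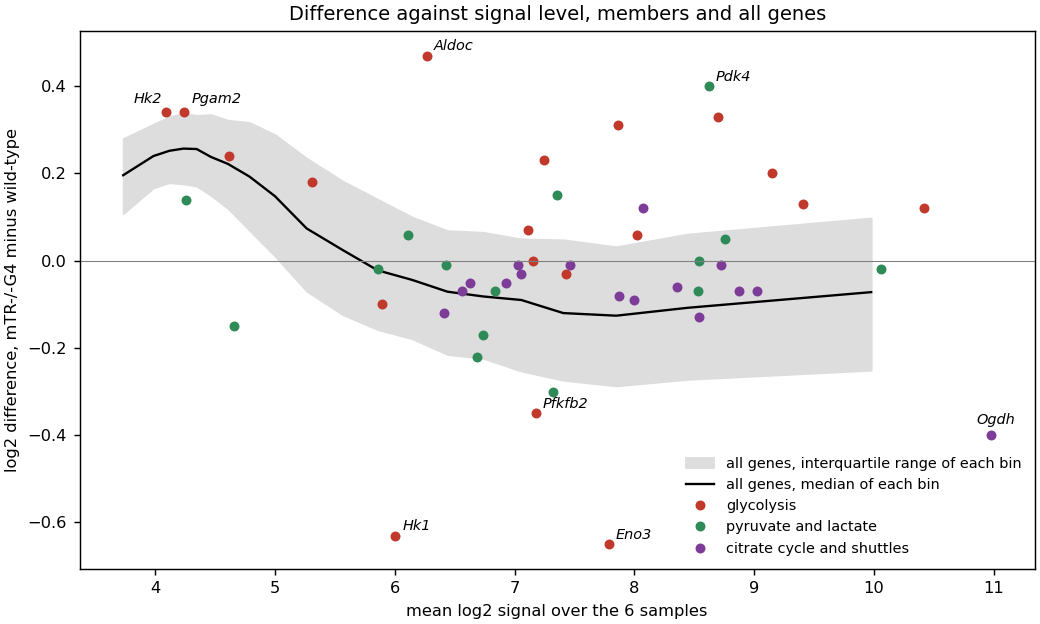
Log2 difference (mTR-/-G4 minus wild-type) against mean log2 signal over the 6 samples for the 50 members, coloured by group. The black line and grey band give the median and the interquartile range of all 20204 genes in 20 bins of equal size. The dim members Hk2 and Pgam2 lie within or near the band for dim genes, and Aldoc, Eno3 and Hk1 lie outside it.

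The hexokinases catalyse the first step. The brightest Hk1 probe read 6.03, 5.42 and 5.61 in mTR-/-G4 samples a, b and c, against 6.73, 6.39 and 5.84 in wild-type samples. mTR-/-G4 a lay above wild-type c, so the genotypes overlapped. Hk1 fell by 0.63 on the log2 scale (SE 0.25, limma adjusted p = 0.205). The call was lost without mTR-/-G4 b (-0.50, SE 0.28, unadjusted p = 0.124 in the limma fit of the other samples), mTR-/-G4 c (-0.59), wild-type a (-0.43) or wild-type b (-0.60). It differed by -1.61 (SE 0.39) with the mean acinar signal of each array as a covariate, which passed, and by -0.19 on the mean of both its probes, where it did not pass. The mean log2 signal of the endothelial markers was 7.53, 7.17 and 7.19 in mTR-/-G4 samples a, b and c, against 8.07, 7.68 and 7.34 in wild-type samples. As for Hk1, the value of sample a was the highest in each genotype. Sample a was also the highest in each genotype for the acinar, duct, leukocyte and stromal means. The part of any of these cell types in the Hk1 difference was not tested.

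The second Hk1 probe went the other way. It read 5.42, 5.53 and 5.40 in mTR-/-G4 samples, against 5.34, 5.33 and 4.95 in wild-type samples, and all mTR-/-G4 values lay above all wild-type values. Its difference of 0.24 (SE 0.14, limma adjusted p = 0.286) did not pass. Probe numbers on this array follow the order of genes along the genome, and the number of this second probe lies among those of the genes next to Hk1, while the number of the brightest probe lies away from them. Which of the probes reads the Hk1 transcript was not tested.

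Hk2, the hexokinase of muscle and fat, read 4.24, 4.36 and 4.19 in mTR-/-G4 islets, against 4.01, 3.82 and 3.92 in wild-type islets. The genotypes did not overlap, but the difference of 0.34 (SE 0.11, limma adjusted p = 0.163) was under 1.5-fold, on a probe in the dimmest of the 4 bins. Hk3, a hexokinase found mainly in leukocytes, did not overlap either and differed by 0.24.

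Phosphofructokinase commits glucose to glycolysis. Its muscle subunit Pfkm had one of the smallest standard errors of the members (0.093), with values of 7.11 to 7.20 in both genotypes, and its 95% interval ran from -0.22 to 0.22. The liver subunit Pfkl differed by 0.23 and the platelet subunit Pfkp by -0.10, both with overlapping genotypes. None of the 3 subunits passed.

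Pfkfb2 and Pfkfb3 make fructose 2,6-bisphosphate, the main activator of phosphofructokinase. Pfkfb2 read 6.92, 7.03 and 7.05 in mTR-/-G4 islets, against 7.17, 7.39 and 7.49 in wild-type islets. Every mTR-/-G4 value lay below every wild-type value, with a difference of -0.35 (SE 0.12, limma adjusted p = 0.179) that was under 1.5-fold. With the acinar signal of each array as a covariate, the Pfkfb2 difference was 0.02 (SE 0.23). Pfkfb3 differed by 0.18 with overlapping genotypes, but passed as lower with the acinar covariate.

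In the middle of the pathway the aldolases split fructose 1,6-bisphosphate into triose phosphates. Aldoc, the brain aldolase, read 6.71, 6.45 and 6.35 in mTR-/-G4 islets, against 6.16, 6.11 and 5.83 in wild-type islets. The genotypes did not overlap, and its difference of 0.47 (SE 0.14, limma adjusted p = 0.16) was the largest positive one among the members, still under 1.5-fold. With the acinar covariate the Aldoc difference was -0.0091 (SE 0.26). Aldoa, the main aldolase of most tissues, differed by 0.06 and Tpi1, which interconverts the triose phosphates, by 0.07, both with overlap.

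Gapdh, which oxidizes glyceraldehyde 3-phosphate and is often used as a reference transcript, read 10.72, 10.33 and 10.41 in mTR-/-G4 islets, against 10.67, 10.31 and 10.10 in wild-type islets. The genotypes overlapped, with a difference of 0.12 (SE 0.18, limma adjusted p = 0.656). With the acinar covariate the difference on this probe was -0.59 (SE 0.27) and did not pass. The other Gapdh probes differed by 0.28 and 0.18 and did not pass. None of the 3 Gapdh probes has a number among the neighbours of Gapdh.

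Pgk1, phosphoglycerate kinase, makes the first ATP of the pathway, and all 3 of its probes lay higher in every mTR-/-G4 sample than in any wild-type sample. Their differences were 0.33 on the brightest, 0.45 (limma adjusted p = 0.128), and 0.21 on the probe beside the neighbours of Pgk1, all under 1.5-fold.

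The mutases move the phosphate of phosphoglycerate before enolase acts. Pgam2, the muscle mutase, read 4.35, 4.63 and 4.24 in mTR-/-G4 islets, against 3.96, 4.11 and 4.13 in wild-type islets, with no overlap and a difference of 0.34 (SE 0.13, limma adjusted p = 0.198) on a dim probe. Without mTR-/-G4 b the Pgam2 difference was 0.23 (SE 0.099). The brightest of 5 Pgam1 probes was the most variable of the glycolysis members: its 95% interval ran from -0.78 to 1.03, and wild-type a stood at 8.39 against 9.71 and 9.93 in wild-type b and c. The Pgam1 probe beside its gene's neighbours differed by 0.05.

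Eno3, the muscle-type enolase, was the member with the largest decrease. It read 7.71, 7.13 and 7.53 in mTR-/-G4 islets, against 7.96, 8.15 and 8.23 in wild-type islets. Every mTR-/-G4 value lay below every wild-type value, with mTR-/-G4 b the lowest. Eno3 fell by 0.65 on the log2 scale (SE 0.17, limma adjusted p = 0.132), a 1.57-fold decrease. Without mTR-/-G4 b the difference was -0.49 (SE 0.12), under 1.5-fold, and after a further quantile normalization -0.51 (SE 0.12). With the acinar covariate it was -0.60 (SE 0.40). Eno2, the neuronal enolase that islet cells also express, differed by -0.03 with overlap.

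Pyruvate kinase makes the last ATP of glycolysis. Pklr, the liver-type gene, was higher in every mTR-/-G4 sample, by 0.31. Pkm2 read 9.19, 9.44 and 9.13 on its brightest probe in mTR-/-G4 islets, against 9.10, 9.03 and 9.03 in wild-type islets, a difference of 0.20 (SE 0.11, limma adjusted p = 0.300) with no overlap, and of 0.10 without mTR-/-G4 b. Its other probe, beside the gene's neighbours, differed by -0.18 (SE 0.11) with overlap, so the direction of Pkm2 rested on the probe.

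Over all 50 members, every mTR-/-G4 sample lay above every wild-type sample for 8, where 25.0% of all genes did so, and below for 3, where 12.2% did. These shares went with signal level. They were 47.6% and 0.436% in the dimmest of the 4 bins, and 7.31% and 25.1% in the brightest, which holds 32 of the members. The 8 were Hk2, Hk3, Aldoc, Pgk1, Pgam2, Pklr, Pkm2 and Dlat, and the 3 were Pfkfb2, Eno3 and Dld. mTR-/-G4 b had the lowest value of the 6 samples for 23 of the 50 members, 46.0%, where it was lowest for 27.1% of all genes.

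**Figure D3:**
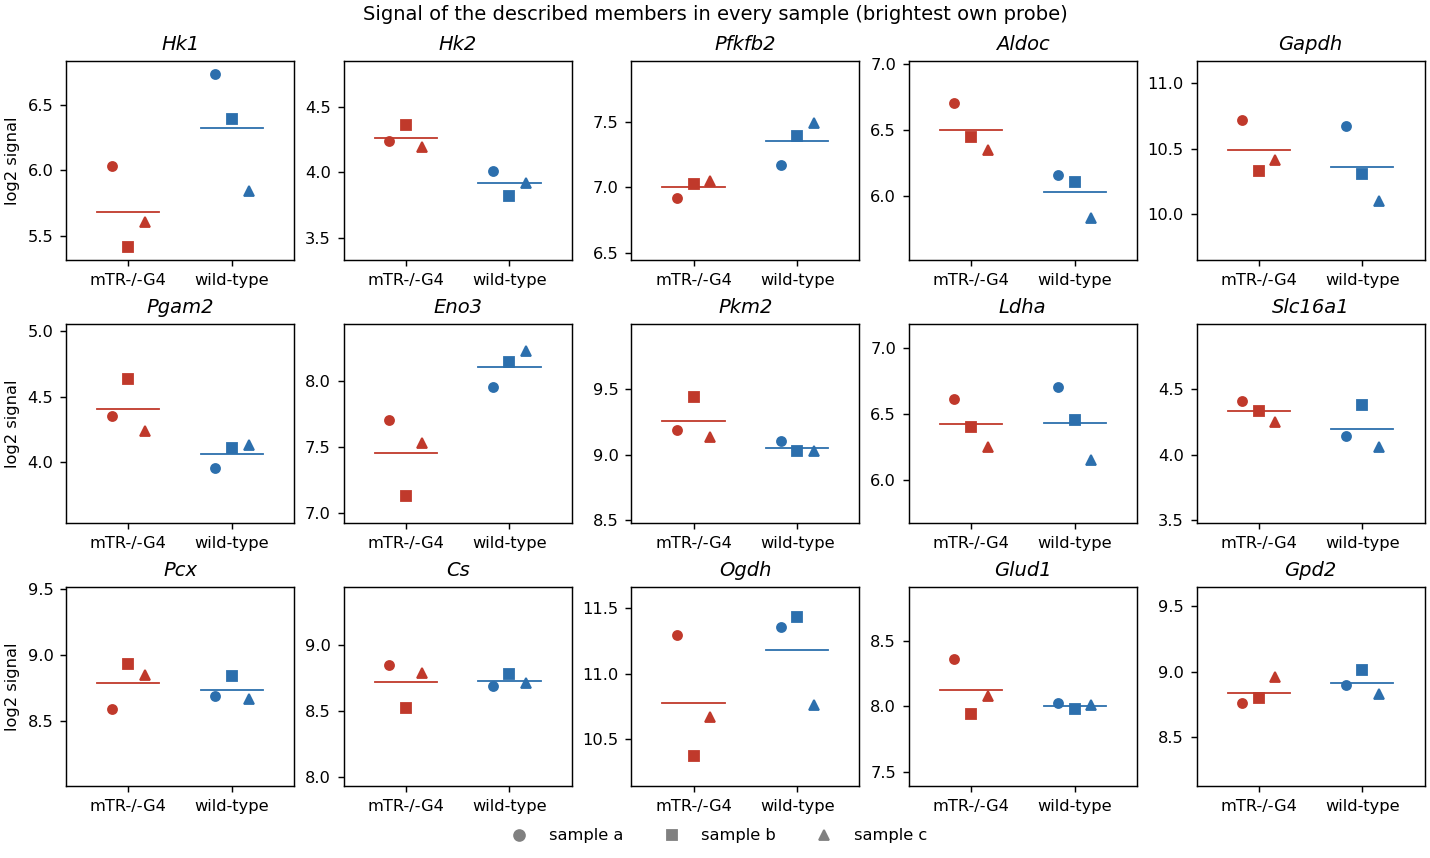
Log2 signal of 15 members in the 3 mTR-/-G4 (red) and 3 wild-type (blue) samples, on the brightest probe of each gene. Points are samples, the shape gives the sample letter, lines are means, and all panels span the same number of log2 units. Eno3, Pfkfb2, Hk2, Aldoc and Pgam2 show no overlap between genotypes, and the mTR-/-G4 values of Ogdh and Glud1 spread more than their mean differences.

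Transcripts around pyruvate and lactate did not pass in either direction. Ldha, which turns pyruvate into lactate, read 6.61, 6.40 and 6.25 in mTR-/-G4 islets, against 6.70, 6.45 and 6.15 in wild-type islets. The values interleaved, and the difference was -0.01 (SE 0.17, limma adjusted p = 0.960). The Ldha probe beside the gene's neighbours differed by -0.10 and the remaining one by 0.10. With the acinar covariate the brightest Ldha probe differed by -0.70 (SE 0.26, unadjusted p = 0.0335 from the limma fit), past the threshold, and the adjusted p was 0.780.

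Ldhb, the heart-type subunit, differed by -0.22 with overlap. Its second probe, whose number lies away from the neighbours of Ldhb, was lower in every mTR-/-G4 sample, by 0.52 (95% interval of the difference -0.82 to -0.22, limma adjusted p = 0.128), just under 1.5-fold. Slc16a1, the carrier of lactate and pyruvate across the plasma membrane, read 4.41, 4.33 and 4.25 in mTR-/-G4 islets, against 4.14, 4.38 and 4.06 in wild-type islets. The genotypes overlapped, with a difference of 0.14 (SE 0.12, limma adjusted p = 0.466), on a probe in the dimmest of the 4 bins.

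Pyruvate dehydrogenase turns pyruvate into acetyl-CoA. Of its subunits, Pdha1 differed by 0.15 and Dlat, the acetyl transferase, by 0.06, while for Pdhb the 95% interval ran from -0.30 to 0.30. Dld, the dihydrolipoyl dehydrogenase that the cycle also uses, was lower in every mTR-/-G4 sample, by 0.30, and mTR-/-G4 b was the lowest at 6.82. None passed the threshold.

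The pyruvate dehydrogenase kinases switch that enzyme off. Pdk1, Pdk2 and Pdk3 differed by -0.02, -0.07 and -0.07. Pdk4, the kinase induced by fasting, varied more than its relatives: it read 9.69, 8.17 and 8.61 in mTR-/-G4 islets, against 9.06, 8.58 and 7.63 in wild-type islets. The Pdk4 difference of 0.40 had a 95% interval of -0.70 to 1.51, which holds changes of more than 1.5-fold in both directions.

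Pyruvate carboxylase and the malic enzymes run the pyruvate cycling of β-cells. Pcx read 8.59, 8.93 and 8.85 in mTR-/-G4 islets, against 8.69, 8.84 and 8.67 in wild-type islets. The values overlapped, and the difference of 0.05 (SE 0.12, limma adjusted p = 0.783) had a 95% interval of -0.24 to 0.35, within 1.5-fold. Me2, the mitochondrial enzyme that uses NAD, differed by -0.17 and Me3, its NADP relative, by -0.15. The cytosolic Me1 differed by -0.02 on its brightest probe, with an interval of -0.74 to 0.70, and by 0.03 on the less variable probe beside its neighbours.

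On their brightest probes, the citrate cycle genes were the most even of the members. Cs, citrate synthase, read 8.85, 8.52 and 8.79 in mTR-/-G4 islets, against 8.69, 8.78 and 8.71 in wild-type islets. The wild-type values lay between the mTR-/-G4 values, and the difference was -0.01 (SE 0.12, limma adjusted p = 0.972). Aco1, the cytosolic aconitase, differed by -0.03, and the isocitrate dehydrogenases ran from -0.13 for the mitochondrial Idh2, through -0.12 for the cytosolic Idh1, to -0.01 for Idh3a, with -0.07 for Idh3b and -0.06 for Idh3g.

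Further round the cycle the values were as close. Dlst, the succinyl transferase of the oxoglutarate dehydrogenase complex, differed by -0.01. The succinyl-CoA ligase subunits Sucla2, Suclg1 and Suclg2 differed by -0.05, -0.05 and -0.07. Fh1, fumarase, differed by -0.08 and Mdh2, the mitochondrial malate dehydrogenase, by -0.09. All 6 had overlapping genotypes. Differences were below 0 for 15 of the 16 cycle members, with none past the threshold, and the brightest bin of all genes, which holds most of them, had a median of -0.10. The median of the cycle members was 0.01 without mTR-/-G4 b and 0.05 after a further quantile normalization, so its sign turned in both.

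Glud1, glutamate dehydrogenase, which feeds oxoglutarate to the cycle from glutamate, was the exception in sign. It read 8.36, 7.94 and 8.08 in mTR-/-G4 islets, against 8.03, 7.98 and 8.01 in wild-type islets. The wild-type values lay within the range of the mTR-/-G4 values. The difference was 0.12 (SE 0.13, limma adjusted p = 0.532).

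Ogdh, the oxoglutarate dehydrogenase and a controlling enzyme of the cycle, was the cycle member whose brightest probe differed most. It read 11.29, 10.37 and 10.67 in mTR-/-G4 islets, against 11.35, 11.43 and 10.76 in wild-type islets, with mTR-/-G4 b the lowest. The genotypes overlapped, and the difference of -0.40 (SE 0.27, limma adjusted p = 0.355) did not pass. It was -0.20 (SE 0.27) without mTR-/-G4 b, and -0.66 without mTR-/-G4 a, which stood near the wild-type values, where it passed the threshold. With the acinar covariate it was -1.22 (SE 0.52) and did not pass.

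Ogdh had 10 probes of its own, more than any other member, with 3 beside the gene's neighbours and 7 elsewhere. What the 7 read was not tested. Of the 10, 9 were lower on average in mTR-/-G4 islets. Of those 9, 3 passed the threshold, with a difference of -0.59 beside the neighbours and of -0.60 and -0.78 elsewhere. The brightest Ogdh probe beside the gene's neighbours was among them: it read 10.30, 10.02 and 10.41 in mTR-/-G4 islets, against 11.01, 11.03 and 10.48 in wild-type islets. All mTR-/-G4 values lay below all wild-type values, with mTR-/-G4 c close to wild-type c, and the difference was -0.59 (SE 0.18, limma adjusted p = 0.165). It was -0.48 without mTR-/-G4 b and -0.38 after a further quantile normalization, both under 1.5-fold. The call was also lost without wild-type a (-0.51) or wild-type b (-0.50) and with the acinar covariate (-0.83, SE 0.42). The other Ogdh probes that passed as lower no longer did so without mTR-/-G4 b (-0.55 and -0.48), without wild-type b (-0.56 and -0.49) or with the acinar covariate (-1.11, SE 0.63, and -0.52, SE 0.36).

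A dim Ogdh probe in the same place went the other way. It read 4.47, 4.72 and 5.0 in mTR-/-G4 islets, against 3.96, 3.98 and 3.82 in wild-type islets, with no overlap. The difference was 0.81 (SE 0.15, limma adjusted p = 0.0946), and it stayed past the threshold without mTR-/-G4 b (0.81, SE 0.17). After a further quantile normalization it was 0.59 (SE 0.16, limma adjusted p = 0.165), only just past it. These values lie at the level of the dimmer bins, where the median differences of all genes were 0.24 and 0.18. Whether this probe was above background was not tested. The remaining Ogdh probe beside the gene's neighbours differed by -0.29. Whether the 3 probes read different exons or transcripts of Ogdh was not tested, since the files give no probe positions.

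Gpd2, the mitochondrial glycerol phosphate dehydrogenase that passes electrons from glycolysis to the respiratory chain, differed in size between its probes, all of them lower on average in mTR-/-G4 islets. Its brightest probe read 8.76, 8.80 and 8.96 in mTR-/-G4 islets, against 8.90, 9.01 and 8.83 in wild-type islets. The genotypes overlapped, and the difference was -0.07 (SE 0.11, limma adjusted p = 0.673), within 1.5-fold over its whole 95% interval of -0.33 to 0.18.

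One dimmer Gpd2 probe differed far more. It read 5.77, 5.13 and 6.19 in mTR-/-G4 islets, against 6.84, 7.38 and 8.07 in wild-type islets. All mTR-/-G4 values were below all wild-type values, and the signal fell by 1.73 on the log2 scale (SE 0.36, limma adjusted p = 0.109), the largest difference on any probe of a member. It was -1.45 (SE 0.36) without mTR-/-G4 b and still past the threshold, and -0.60 (SE 0.68) with the acinar covariate, where it was not.

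The remaining Gpd2 probes differed by -0.39 and -1.11, with overlap. On the probe that differed by -1.11, mTR-/-G4 values were 5.20, 4.88 and 4.98, against 4.59, 6.29 and 7.52 in wild-type islets, so wild-type a was the lowest of all samples and wild-type c the highest. All 4 Gpd2 probes have numbers among the neighbours of the gene. The mean of all 4 probes differed by -0.83 and passed the threshold with an unadjusted p of 0.0124 from limma.

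**Figure D4:**
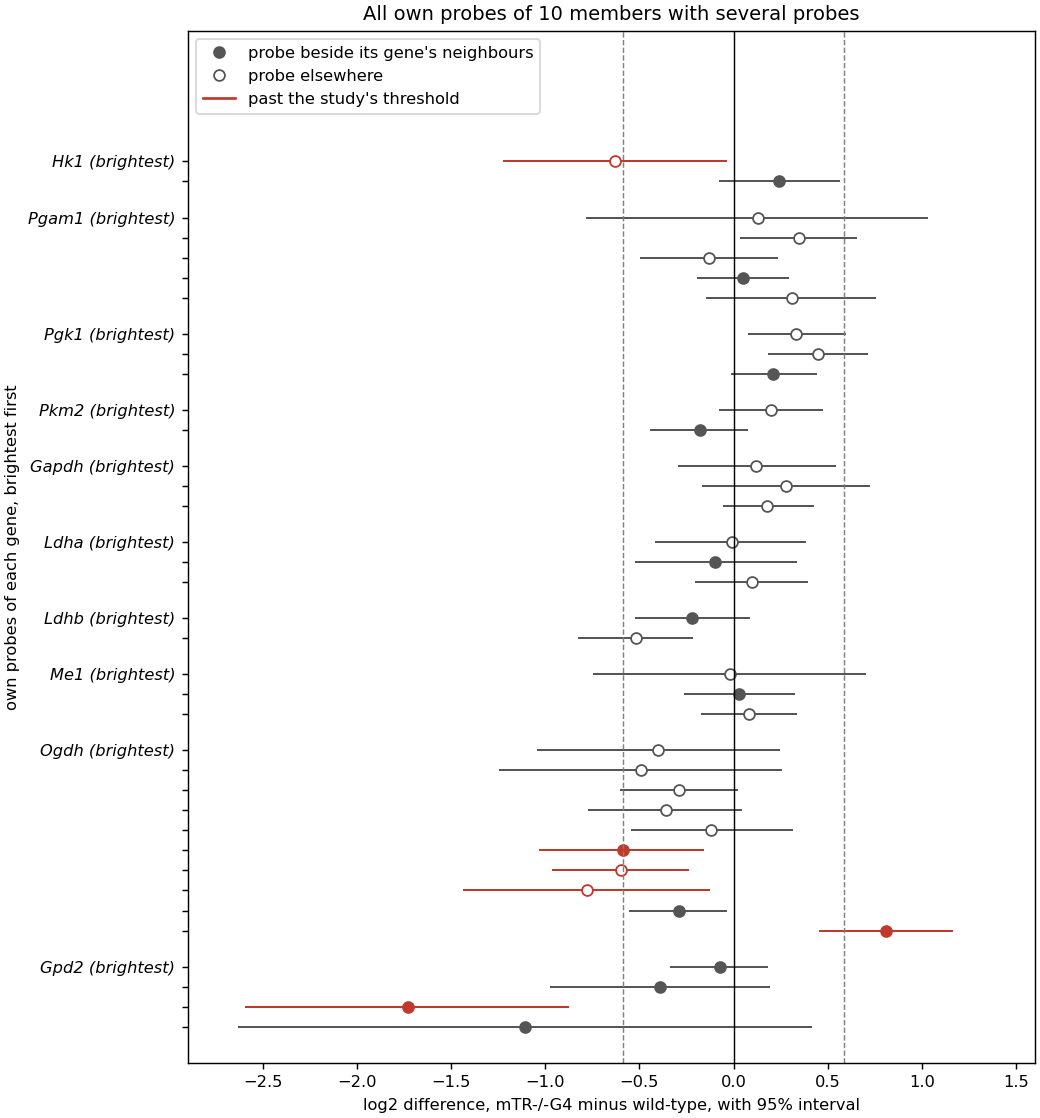
Log2 difference (mTR-/-G4 minus wild-type) with 95% interval for every own probe of 10 members, the brightest of each gene first. Filled points are probes whose numbers lie among those of the gene's neighbours, open points lie elsewhere, and red marks probes past the study's threshold. The Hk1 and Pkm2 probes lie on opposite sides of 0, 9 of 10 Ogdh probes lie below 0 and 1 above, and the Gpd2 probes run from -0.07 to -1.73.

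Several members had probes whose numbers lie away from those of their gene's neighbours. Of the 50 members, 13 had several probes, and for 9 of those the brightest probe lay away from its gene's neighbours: Hk1, Gapdh, Pgk1, Pgam1, Pkm2, Ldha, Me1, Ogdh and Suclg2. The same held for 675 of 3026 genes with several probes over the whole array, whereas 16797 of 16986 single-probe genes lay beside their neighbours, as did all 37 single-probe members. What such a probe reads was not tested. Of the 30 probes other than the brightest, 1 was past the threshold as higher, where 2.62% of all probes were, and 4 as lower, where 3.61% were. They were the Ogdh and Gpd2 probes described above. With the brightest probe beside the neighbours standing for each gene, the 2 members past the threshold were Eno3 and Ogdh in place of Hk1 and Eno3.

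Other genes of the same pathways were read from 4 further lists of 65 genes, of which 55 had a probe of their own. None of the 55 passed the study's threshold in limma, and 9 were higher and 4 lower at an unadjusted p under 0.05, where 14.2% and 7.96% of all genes were. Their median difference was 0.08 and they ran from -0.38 to 0.57. The ends of that range, chosen after their values were seen, were Pgls, the lactonase of the pentose phosphate pathway, at -0.38 (limma adjusted p = 0.133), and Gpd1, the cytosolic partner of Gpd2 in the glycerol phosphate shuttle, at 0.57 (limma adjusted p = 0.182).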

How the data were processed

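RNA of 3 mTR-/-G4 and 3 wild-type islet samples was hybridized to exon arrays. The authors normalized the arrays together by Robust Multichip Analysis in Partek (version not given in the sources used here; build mm9 per the labels) and deposited log2 values of 34502 transcript clusters, called probes here. The platform annotation gives a single gene for 25362 of them, several for 2238 and none listed for 6902. A gene was read only from a probe listed for it alone, the brightest standing for it. Of the 53 genes, 49 matched exactly and 1 by another symbol.

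Genotypes were compared with limma 3.58.1 (lmFit, eBayes) in R 4.3.3 over all probes, unpaired, with no filter, and adjusted p-values are Benjamini-Hochberg over all probes. The fit was tested on simulated data. The precision is limited by 3 arrays per genotype. The members, lists and tests were chosen with earlier results of these data known. Values are given in every sample for members past the threshold on any probe, for members with an unadjusted p under 0.05 and no overlap among the 6 largest differences of their group, and for Ldha, Slc16a1, Hk1, Pcx, Gapdh, Pkm2, Cs, Glud1 and Gpd2. The values of Pdk4 and single values of Pgam1 and Dld were added after they were seen.

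A probe was called beside its gene's neighbours where at least 10% of the 10 named probes on either side by number belong to genes within 10 Mb of it in RefSeq (GRCm38.p6, used for neighbourhood only). Alternatives were a further quantile normalization, median centring, bright probes only, a trended robust prior and a replicate block. Others were 1 probe per gene, the mean of own probes, an acinar covariate (21 markers), each sample left out and Student's t-test. The brightest probe beside the neighbours was an alternative chosen after seeing the data.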

Additional observations from a re-analysis of the deposited data

How the results depend on the processing

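The count of 0 members higher was the same under every alternative. The count of 2 members lower was 1 after a further quantile normalization (Hk1) and 1 with Student's t-test (Eno3). It ran from 0 to 3 when 1 sample was left out, with 0 without mTR-/-G4 b and 3 without mTR-/-G4 a (Hk1, Eno3 and Ogdh). It was 3 with the acinar covariate (Hk1, Pfkfb3 and Ldha), and 2 with the mean of all own probes (Eno3 and Gpd2) and with the brightest probe beside its gene's neighbours (Eno3 and Ogdh), so equal counts did not name the same genes. Under the last of these, Hk1 was reversed at 0.24. The glycolysis median of 0.13 was 0.03 with each array centred on its median, which moved the median of all genes to 0.00, and ran from 0.07 to 0.22 with 1 sample left out. Over all genes, the calls of 391 higher and 331 lower were 375 and 542 with the acinar covariate, 180 and 307 among probes brighter than the median, 799 and 538 without mTR-/-G4 a, and 266 and 200 without mTR-/-G4 b. With Student's t-test they were 227 and 254, and 0 after Benjamini-Hochberg adjustment. Samples of the same letter deviated together with correlations of 0.043, -0.16 and 0.112, so the letters were not taken to pair the samples. With the replicate block the members lower were 2 (Hk1 and Eno3), and 181 probes had an adjusted p under 0.05, against 1 without it. The cause of these shifts was not tested. Detection calls were not used here, so whether the members in the dimmest of the 4 bins, Hk2, Pgam2 and Slc16a1, were above background was not tested.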
